A study of Mus musculus with 33 samples.

Results

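The heat shock factor genes Hsf1, Hsf2 and Hsf4, together with Hsbp1, which encodes a protein that binds heat shock factors, were examined for ChIP-seq peaks in and around them. Every peak whose summit lay inside one of these 4 genes or within 20 kb of it was taken, from 15 deposited peak lists. Of 45686 peaks in all lists, 9 met this rule: 6 of the 13724 peaks of HSF1 antibodies in wild type cells, 3 of the 31812 peaks of the same antibodies in HSF1 knockout cells, and 0 of 150 SRF peaks. The genes are 4 of the 21631 protein-coding genes that the autosomes (1 to 19) and chromosome X hold in the gene table. The question was whether HSF1 is found near genes of its own family.

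The cells were mouse embryonic fibroblasts (MEFs, fibroblasts grown from embryos) with the strain background 129Sv.BALB/c. Wild type cells and cells labelled HSF1-/- were sampled unheated and at 12 and 60 min of heat shock. The HSF1-/- cells are taken, from their label, to lack the factor and to show what each antibody gives without it. In both genotypes chromatin was precipitated with 2 antibodies, a commercial one labelled CS and a gift labelled MM. Their target is not named in the labels, and they are taken as HSF1 antibodies because the headers of the wild type lists speak of Hsf1. An antibody to SRF, another transcription factor, was used on wild type cells only, at all 3 times. There was 1 list for each genotype, antibody and time. The wild type CS and MM lists were each made from a merge of 2 replicates and the knockout lists from files that name no merge, so no list has a replicate error and no test compared conditions. The sources used here do not give how the HSF1-/- allele was made or how many embryos or lines were used. Peak lists hold no expression, so neither the fibroblast identity nor the loss of HSF1 could be checked from them.

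HSF1 is the main factor of the heat shock response. In unstressed cells it is held inactive, in part by chaperones such as Hsp90 and Hsp70. On heat it forms trimers that bind heat shock elements, inverted repeats of the letters GAA and TTC, at chaperone genes. HSF2 shares the DNA-binding domain, can form mixed trimers with HSF1 and is best known from development. HSF4 is known for its role in the lens. HSBP1 is a small coiled-coil protein that binds the trimer-forming part of HSF1 and has been described as a negative regulator.

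Of these genes, Hsf2 and Hsbp1 had an entry in the RefSeq promoter table (build GRCm38.p6), and Hsf1 and Hsf4 are named only. The 250 bases before each start are shown because they are where an HSF1 promoter site would be looked for, beside the promoters of 2 chaperone genes with strong HSF1 regions. Capitals mark matches to a heat shock element on either strand, with N for any base: the 8-letter forms GAANNTTC and TTCNNGAA, and 13-letter forms that add another unit, GAANNTTC followed at once by NNGAA and TTCNNGAA followed at once by NNTTC. The 13-letter forms are 1 motif read on opposite strands, and each of their matches contains both 8-letter forms.
Hsf2 (chr10:57486135-57486384, + strand): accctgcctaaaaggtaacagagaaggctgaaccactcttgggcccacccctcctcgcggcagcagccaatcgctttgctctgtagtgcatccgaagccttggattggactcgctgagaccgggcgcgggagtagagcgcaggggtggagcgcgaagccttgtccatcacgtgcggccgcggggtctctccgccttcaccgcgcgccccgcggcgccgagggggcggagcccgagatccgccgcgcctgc
Hsbp1 (chr8:119344288-119344537, + strand): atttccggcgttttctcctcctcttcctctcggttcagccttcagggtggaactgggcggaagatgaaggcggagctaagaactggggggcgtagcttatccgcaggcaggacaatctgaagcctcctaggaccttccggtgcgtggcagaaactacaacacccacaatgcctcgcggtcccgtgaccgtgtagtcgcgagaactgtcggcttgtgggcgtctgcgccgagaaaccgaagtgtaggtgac
Hspa1b (chr17:34959239-34959488, - strand): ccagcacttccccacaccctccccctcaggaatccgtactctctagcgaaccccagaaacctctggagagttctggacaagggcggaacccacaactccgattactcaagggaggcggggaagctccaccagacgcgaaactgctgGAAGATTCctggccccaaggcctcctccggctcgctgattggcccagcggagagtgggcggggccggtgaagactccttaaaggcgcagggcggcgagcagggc
Hspd1 (chr1:55087933-55088182, - strand): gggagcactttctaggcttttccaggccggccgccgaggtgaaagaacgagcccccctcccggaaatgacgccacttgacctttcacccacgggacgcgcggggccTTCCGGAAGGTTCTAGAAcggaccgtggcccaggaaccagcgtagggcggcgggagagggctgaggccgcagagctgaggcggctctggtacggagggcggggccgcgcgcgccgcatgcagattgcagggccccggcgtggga

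Neither the Hsf2 nor the Hsbp1 promoter held a match to any of these 4 motifs, and no HSF1 region overlapped either window. Hspd1, the mitochondrial chaperonin, held overlapping 13-letter matches from 144 to 127 bases before its start, under a 60 min region of 1275 CS and 1096 MM tags. The region of unheated wild type cells at Hspd1, with 319 CS and 266 MM tags, overlapped a knockout peak. The nearest knockout summit lay 107 bp from its own. Such overlap was not listed for the 60 min region. Hspa1b, a stress-inducible Hsp70, held a single 8-letter match, 104 to 97 bases before its start, under a region of 1402 CS and 1166 MM tags. Hspa1b was shown because its region had the most CS tags among the genes with a promoter entry on a list of HSF1 regulators described at the end of the results, and Hspd1 because it had the most CS tags of all promoters with a 13-letter match; both were chosen after their values were seen. Of 32619 promoter windows of 300 bases, 0.607% held the 13-letter motif and 15.1% either 8-letter motif. Among the 676 windows that overlapped a 60 min HSF1 region these shares were 6.66% and 26.9%, so most windows under a region held neither. The absence of a match in the Hsf2 and Hsbp1 windows says only that these letters are not in them.

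Peaks of HSF1 antibodies near the 4 genes in wild type cells lay mainly at Hsf2, beyond the end of the gene that is away from its promoter. Hsf2 had 5 of the 6 wild type peaks, 3 at 12 min and 2 at 60 min. Hsf1 itself had 1, from the MM antibody at 60 min. Hsf4 and Hsbp1 had none. Before heat shock no wild type peak lay near any of the 4 genes, in lists of 180 CS and 449 MM peaks that reached 0.975% and 2.75% of all protein-coding genes by the same rule. After 12 min, 1 of 4 genes had a CS peak and 1 of 4 an MM peak, against 8.36% and 9.46% of all protein-coding genes. After 60 min, 1 of 4 had a CS peak and 2 of 4 an MM peak, against 18.1% and 20%. With 4 genes these counts are near the background and are not a result about the family.

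**Figure D1:**
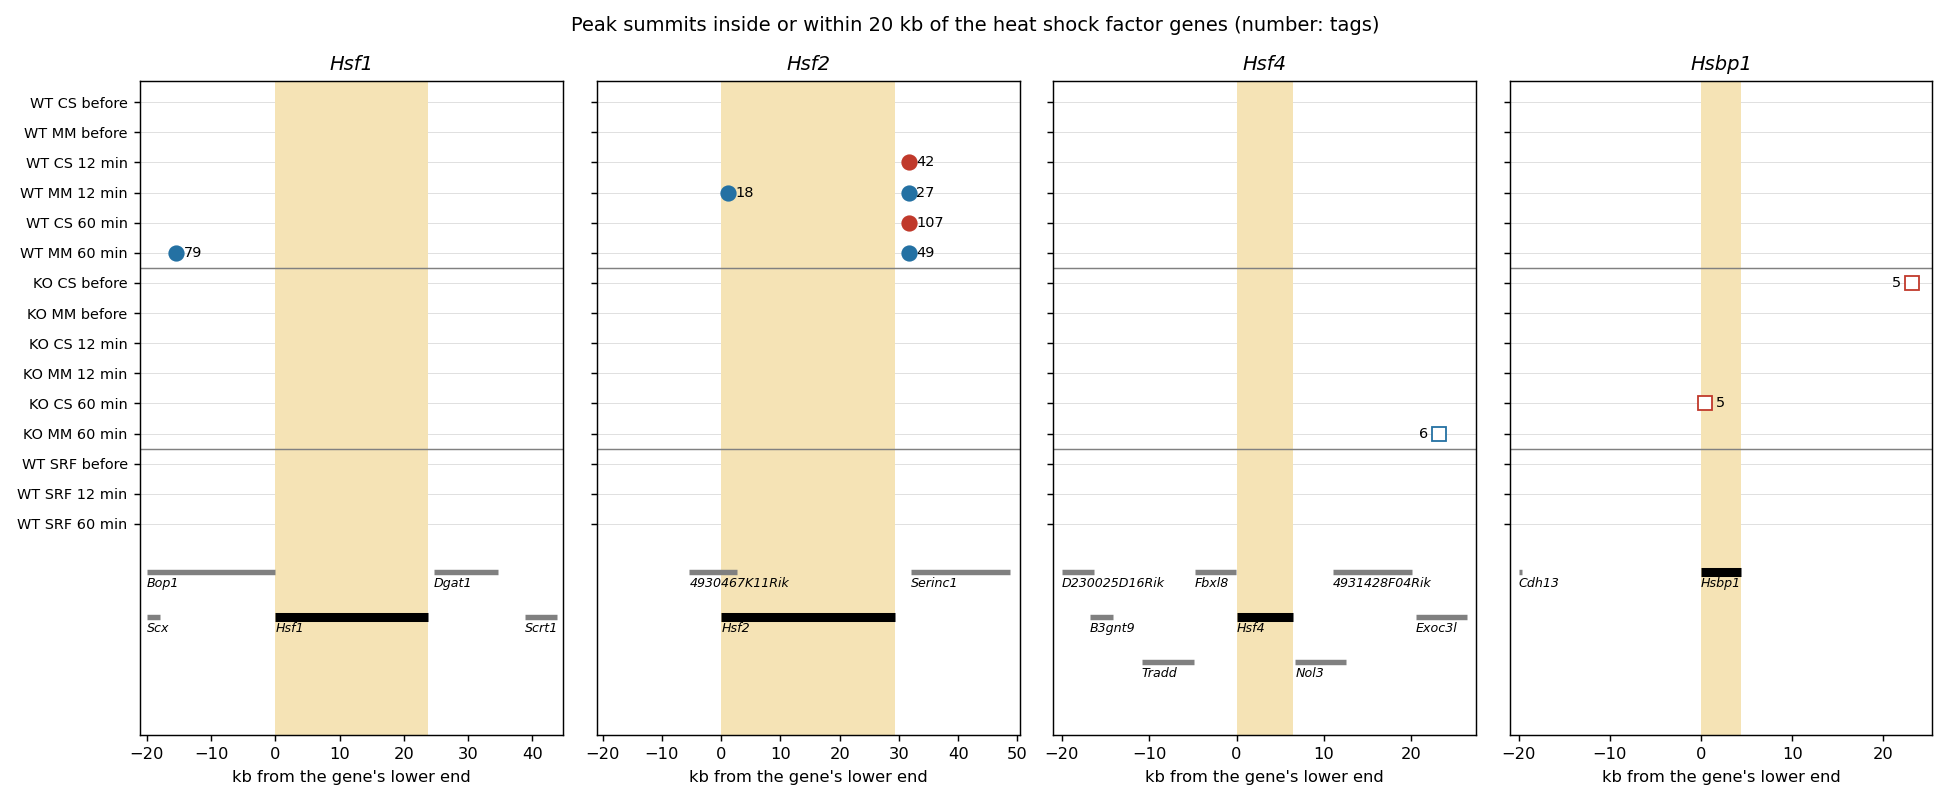
Peak summits (points) inside and within 20 kb of each gene, by list (rows), with distance in kb from the end of the gene with the lower coordinate on the x axis. Filled circles are wild type, open squares HSF1 knockout, red CS and blue MM, the number at each point is its tags, the shaded band is the gene and bars at the bottom are annotated genes. The 4 wild type Hsf2 peaks beyond the upper end line up over both antibodies and both times, and no other gene has a position shared by 2 lists.

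Where a CS peak and an MM peak from the same cells and time overlapped by at least 1 bp, they were joined into a shared region. By this stricter measure Hsf2 alone had a region nearby in wild type cells, at 12 min and at 60 min, and none of the 4 genes had one before heat shock. The share of all protein-coding genes with a shared region inside or within 20 kb was 0.735% in unheated cells (interval 0.626% to 0.858%), 6.99% at 12 min (6.65% to 7.34%) and 14.7% at 60 min (14.3% to 15.2%). The intervals are exact (Clopper-Pearson) at 95% and cover counting error only.

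**Figure D2:**
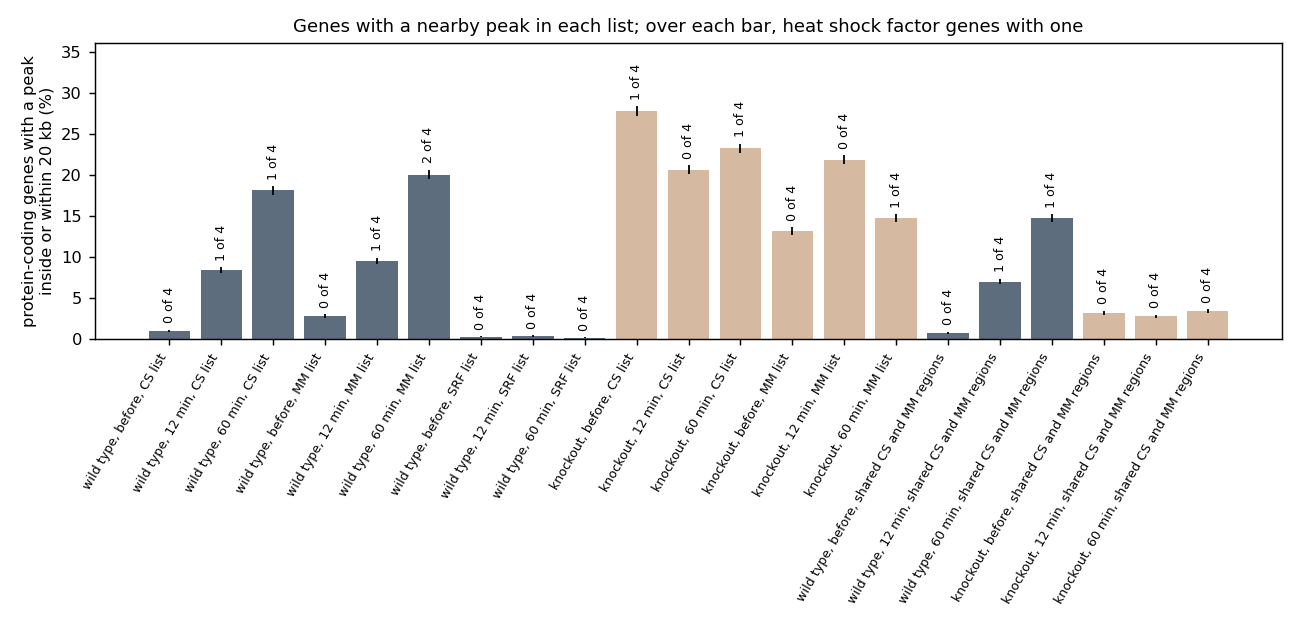
Share of 21631 protein-coding genes with a peak or shared region inside or within 20 kb (y axis, percent) for each list and for the shared regions (x axis), dark bars for wild type and light bars for HSF1 knockout, with exact 95% intervals as error bars. The label over each bar is the number of the 4 heat shock factor genes with such a peak, which is at most 2 (the MM list at 60 min in wild type, where the share over all genes is 20%).

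Hsf2 (chromosome 10, 57483766 to 57513143) had its shared region in the 2631 bp between its upper end and the neighbouring gene Serinc1, which encodes a serine incorporator of membranes. At 12 min the CS peak held 42 tags (57515303 to 57515781) and the MM peak 27 tags (57515190 to 57515705). At 60 min the CS peak held 107 tags (57515079 to 57515850) and the MM peak 49 tags (57515137 to 57515724). The 4 summits lay within 41 bp of each other, 2327 to 2368 bp beyond the upper end of Hsf2, so both antibodies and both times marked the same place.

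This place was nearer to Serinc1 than to Hsf2. The 60 min region had its summit 268 bp from the lower end of Serinc1 and 2363 bp from the upper end of Hsf2, and its last 77 bp lay inside Serinc1. No strand or promoter entry was given for Serinc1, so whether its lower end is its start or its far end is not known here. The Hsf2 start in the promoter table lies at 57486385, so the 60 min region was 29121 bp away from it across the whole gene. Of the protein-coding genes, 8.49% had a 60 min shared region at least as near as 2363 bp, and 3.99% had a 12 min region at least as near as the 2331 bp of Hsf2 at 12 min. The files do not say which of the 2 genes, if either, the region acts on.

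The Hsf2 region was of modest height within its lists. At 12 min the CS peak ranked 1409 of 1781 by tags (list median 67 tags) and the MM peak 1323 of 1927 (median 38). At 60 min the CS peak ranked 1342 of 4773 (median 65) and the MM peak 1578 of 4614 (median 36). Both peaks were thus below the median of their list at 12 min and above it at 60 min, but these lists differ in length and such ranks show no change. Over the 1231 regions of 60 min that overlap a 12 min region, 1 set for both times, the Hsf2 region ranked 1093 by CS and 1036 by MM tags at 12 min, and 893 and 895 at 60 min. In this set it stayed below the median at both times: 42 against 85 CS tags and 27 against 49 MM tags at 12 min, and 107 against 168 and 49 against 85 at 60 min.

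**Figure D3:**
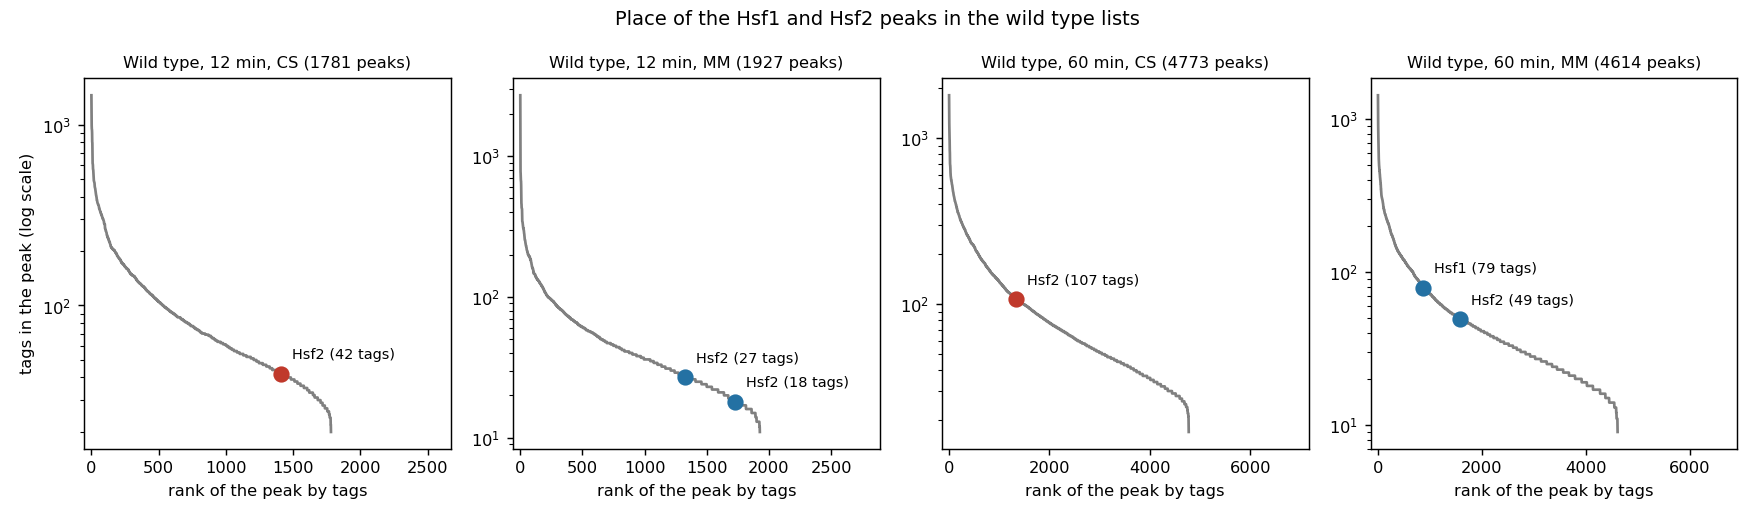
Tags of every peak (y axis, log scale) against its rank by tags (x axis) in the wild type CS and MM lists at 12 and 60 min, with the peaks near Hsf1 and Hsf2 marked. The Hsf2 peaks sit in the lower part of the 12 min lists (42 and 27 tags, and 18 tags for the MM peak at the other end of the gene) and above the middle of the 60 min lists (107 and 49 tags).

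By the authors' fold enrichment the Hsf2 region stood higher in CS lists than by tags. Its fold was 29.0 at 12 min (rank 680) and 59.9 at 60 min (rank 884) with CS, and 14.5 (rank 997) and 24.9 (rank 1669) with MM. The deposited FDR was 2.88% (CS) and 5.18% (MM) at 12 min and 0.51% and 0.35% at 60 min. The 12 min region is therefore lost at an FDR limit of 5% and at p of 1e-10 or less, and the 60 min region is kept under both.

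A separate Hsf2 peak lay at the promoter end of the gene, in the 12 min MM list only. It held 18 tags at chromosome 10, 57484703 to 57485096, and ranked 1725 of 1927 by tags, with a fold of 14.0 and an FDR of 31.2%. Its summit was inside the annotated span of Hsf2, 1156 bp from the lower end, but 1463 bp before the start given in the promoter table. The long noncoding RNA gene 4930467K11Rik spans the same place. No CS peak of any time and no MM peak before heat shock or at 60 min was called there, so it rests on 1 of 6 wild type lists.

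Hsf1 (chromosome 15, 76477362 to 76501155) had no peak inside it in any of the 15 lists. The gene lies 113 bp from Bop1, a ribosome assembly factor gene. Its nearest wild type peak was the 60 min MM peak at 76460803 to 76462545, which held 79 tags and ranked 877 of 4614 by tags. Its summit lay 15467 bp outside Hsf1, inside Bop1 and 2427 bp from Scx, the gene of the tendon factor scleraxis. The peak was broad at 1743 bp and had a low fold of 6.03 (rank 4603) and an FDR of 7.45%. No CS peak overlapped it, and the nearest CS peak of that time was 24.8 kb away. High tags over a broad peak with almost the lowest fold of its list set it apart from the Hsf2 region.

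The nearest shared region to Hsf1 lay farther out. At 60 min it was inside Mroh1, 40.3 kb from Hsf1 (chromosome 15, 76436519 to 76437692), with 183 CS and 117 MM tags, ranked 661 of 3455 regions by CS tags. At 12 min the nearest was 280 kb away, inside Plec, with 169 CS and 86 MM tags, and before heat shock 4900 kb away. The Plec region overlapped a knockout peak and had an FDR of 10.9% (CS) and 56.9% (MM), while the Mroh1 region overlapped none and had 0.34% and 0.26%. Of all protein-coding genes, 21.1% had a 60 min shared region as near as the 40.3 kb of Hsf1.

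Hsf4 (chromosome 8, 105269414 to 105275845) had no wild type peak within 20 kb at any time. Its nearest wild type peak was an MM peak of 37 tags at 60 min, 23.2 kb away and inside E2f4, a cell cycle factor gene, with an FDR of 20.2% and no CS peak. Its nearest shared region was 585 kb away at 12 and at 60 min, 88 to 112 bp from Nutf2, with 186 CS and 106 MM tags at 12 min and 210 and 132 at 60 min. That region overlapped a knockout peak. Of all protein-coding genes 75.9% had a 60 min shared region as near.

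Hsbp1 (chromosome 8, 119344538 to 119348929) had no wild type peak within 20 kb either. The nearest CS and MM peaks at 60 min formed a region 74.8 kb away, 1906 bp from Mlycd, with 52 CS and 28 MM tags and an FDR of 0.52% and 11.9%. At 12 min the nearest shared region was 878 kb away, near Gse1, with 77 CS and 37 MM tags. Of all protein-coding genes 29.8% had a 60 min shared region as near as the one to Hsbp1.

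**Figure D4:**
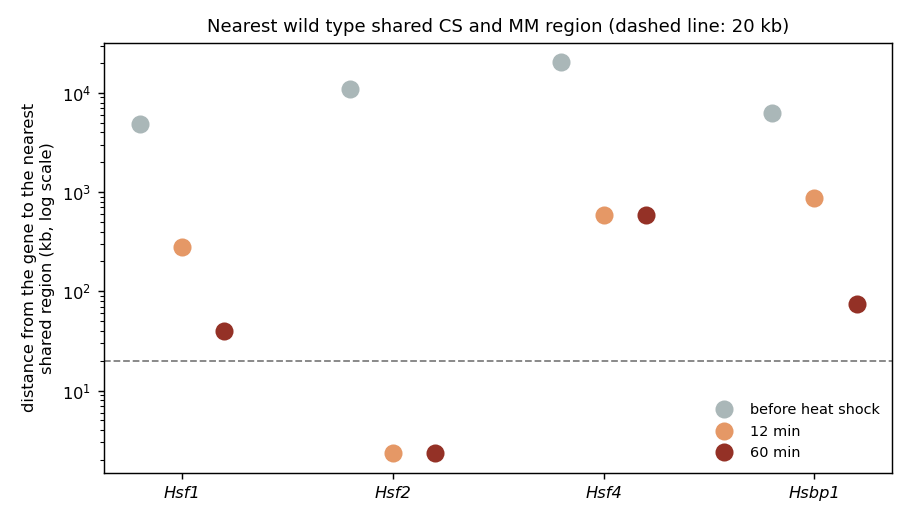
Distance from each gene to the nearest wild type shared region (y axis, kb, log scale) before heat shock and at 12 and 60 min, with the 20 kb limit as a dashed line. Hsf2 alone falls under the line, at 2.33 and 2.36 kb, while Hsf1 reaches 40.3 kb, Hsbp1 74.8 kb and Hsf4 585 kb at 60 min.

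The knockout lists hold what each antibody gave in the cells labelled HSF1-/-. No knockout peak lay near Hsf1 or Hsf2, and the knockout peak nearest to the 60 min Hsf2 region was 66.9 kb from its summit. Hsbp1 had a CS peak of 5 tags before heat shock, 18.8 kb beyond its upper end, and a CS peak of 5 tags at 60 min inside the gene, 412 bp from its start. Hsf4 had an MM peak of 6 tags at 60 min, 16.7 kb beyond its upper end and inside Exoc3l. Each was 100 to 112 bp wide and none was called by the other antibody.

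These 3 peaks were at or near the floor of their lists. The lowest peaks of the knockout CS lists before heat shock and at 60 min held 5 tags, as many as the Hsbp1 peaks, and the lowest of the 60 min MM list held 5, against 6 at Hsf4. In the knockout, a peak within 20 kb was found for 27.8% of all protein-coding genes with CS in unheated cells, 20.6% at 12 min and 23.3% at 60 min, and for 13.1%, 21.8% and 14.7% with MM. Of the 4 genes, 1 had a peak with CS before heat shock, 1 with CS at 60 min, 1 with MM at 60 min and none in the other 3 lists. No shared knockout region lay within 20 kb of any of the 4 genes, against 3.19%, 2.72% and 3.37% of all protein-coding genes. The knockout lists were called without a control library and each from fewer tags than the wild type list of the same antibody and time, so the peak numbers of the genotypes are not on 1 scale.

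No SRF peak lay near any of the 4 genes, in lists that reached 0.240%, 0.347% and 0.116% of all protein-coding genes before heat shock and at 12 and 60 min. The SRF lists held 64, 68 and 18 peaks from 0.751, 1.55 and 0.949 M kept tags (M for mega).

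At the limit of 20 kb, the outermost peaks taken were the knockout peaks at 18.8 kb from Hsbp1 and 16.7 kb from Hsf4 and the wild type MM peak at 15.5 kb from Hsf1. Just outside were a knockout CS peak of 5 tags at 12 min, 21.1 kb from Hsf1, and the MM peak in E2f4, 23.2 kb from Hsf4. None of these 5 peaks was called by both antibodies.

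The other 4 genes of the family were Hsf3, Hsf5 and Hsfy2, which encode further factors with this DNA-binding domain, and Hsbp1l1, a relative of Hsbp1. None had a CS, MM or SRF peak within 20 kb in wild type cells. Hsf5 had 1 knockout CS peak, at 12 min. No wild type list reached more than 20% of all protein-coding genes by this rule, and that knockout list reached 20.6%, so counts of 0 and 1 of 4 are near the background. The nearest 60 min shared regions were 42.3 kb from Hsbp1l1, 90.1 kb from Hsf5, 171 kb from Hsf3 and 483 kb from Hsfy2. Of these genes, 3 had a promoter entry, and Hsf5 alone held a match, a single 8-letter TTCTGGAA from 185 to 178 bases before its start, with no region over it.

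A list of 44 genes held those described as regulators or partners of HSF1. Of these, 5 had a wild type shared region within 20 kb in unheated cells (11.4%, interval 3.79% to 24.6%), 13 at 12 min (29.5%, 16.8% to 45.2%) and 13 at 60 min, against the 0.735%, 6.99% and 14.7% of all protein-coding genes. With a deposited FDR of 5% or less the 5, 13 and 13 genes became 0, 7 and 13. The shares of all protein-coding genes at that limit were 0%, 4.86% and 12.9%. Without regions that overlap a knockout peak the 5, 13 and 13 genes became 5, 9 and 10, against shares of 0.587%, 6.05% and 13.4%. Before these limits, nearly all genes with a region were chaperones and cochaperones, with 5, 12 and 12 of 13 such genes. Of the 31 other genes, among them kinases, acetylases and ubiquitin and SUMO factors, 0, 1 and 1 had a region. A count of 0 of 31 has an upper limit of 11.2%. The interval for 1 of 31 (3.23%) is 0.0816% to 16.7%, which holds the 6.99% and 14.7% of all genes. These intervals treat listed genes as independent, though Hspa1a and Hspa1b share a region, and the list was not a random draw. The list was chosen with earlier results of these data known. The shares and intervals are therefore descriptive and test no difference between listed genes and all genes.

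The 10 listed genes with the most CS tags at 60 min were all chaperones or cochaperones. Hsp90ab1, a cytosolic Hsp90 that holds HSF1 inactive, led with 1818 CS and 1429 MM tags, ranked 1 of 3455 regions. Hspa1b and Hspa1a had the same region of 1402 CS tags within 20 kb. As these genes are near-identical copies, their tags can depend on how such reads were placed, which was not tested. Next came Hspa8 with 1156, Stip1 with 1138, Dnajb1 with 1016, Hsp90aa1 with 845, Fkbp4 with 578, Tcp1 with 561 and Ptges3 with 420 CS tags. Summits lay 13 to 641 bp from an end of the gene, except for the region counted for Hspa1a, which was 9940 bp away; Hspa1a had another, weaker region over its own promoter. Which regions of these 10 genes overlap a knockout peak was not listed. Without such regions, 10 of the 13 listed genes with a region at 60 min kept one. The Hsf2 region, with 107 CS tags, ranked 1326 of 3455.

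Atf1, a factor known to act with HSF1, was the listed gene outside the chaperones with a region, of 104 CS and 56 MM tags at 12 min and 101 and 43 at 60 min, 755 and 780 bp from the gene. Stub1, a ubiquitin ligase that works with chaperones, was the listed cochaperone without a region.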

How the data were processed

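Of 33 samples, 15 had a peak list, and the other 18 (PRO-seq, IgG and input libraries) were not analysed here. The genome was mm10, per the submitters' processing notes, and an aligner was not given in the sources used here. For CS and MM the authors ran MACS 1.4.2 (p cutoff 1e-04, at most 1 tag per position), per the file headers. Wild type libraries, with 19.6 to 26.3 M kept CS tags and 14.0 to 17.7 M MM tags (M for mega), had the time-matched IgG as control, and knockout libraries, with 5.18 to 15.6 M, had none. For SRF the file headers name MACS 2.0.9 with IgG as control. The MACS fragment length was 45 (CS) and 40 bp (MM) in wild type before heat shock and 33 to 40 bp in the knockout, near the 36 bp of the tags, and 107 to 161 bp in wild type after heat shock; its part in the results was not tested.

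Each CS and MM peak carries a tag count, a score (minus 10 times the log10 of p), a fold enrichment (ratio) and, in wild type, an FDR in percent, all as deposited. SRF peaks carry a pileup signal, -log10 p and q and a fold ratio, as deposited. These are the authors' values for each peak, and no SD exists. The lowest wild type peaks after heat shock held 20 (CS, 12 min), 17 (CS, 60 min), 11 (MM, 12 min) and 9 tags (MM, 60 min), so weaker signal would not be listed.

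Gene positions and promoters came from RefSeq GRCm38.p6, the primary assembly of mm10. The gene table has no strand, so ends are called lower and upper by coordinate. A shared region joins overlapping CS and MM peaks (at least 1 bp), and its summit lies midway between the summits of its highest CS and its highest MM peak by tags. Both antibodies had the same IgG control at each time. Ties in rank take the best rank. Shares of genes have exact 95% intervals (scipy 1.17.1), and counting of genes near peaks was tested on simulated data. The genes and lists were chosen with earlier results of these data known. Genes were named by a fixed rule: the 4 genes with every peak, the rest of the family, the gene nearest each peak, the nearest shared region, and up to 10 genes of the regulator list by 60 min CS tags. Outside this rule, Hspd1, Hsf2bp, Atf1 and Stub1 were named after their values were seen. Other limits of distance, p, FDR, overlap and tags were tried. Of the regulator list 44 of 44 genes were found in the gene table.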

Additional observations from a re-analysis of the deposited data

How the results depend on the processing

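There was 1 list per condition, so leaving out a replicate was not possible, and the reading of each count rests on the authors' calls. No paired analysis was possible because the labels give no replicate numbers and each group has 1 sample. Of the recomputed counts and shares, 72 stayed within 1.5 times the reported value and 24 moved. Counts of 0 wild type peaks and regions before heat shock, and of 0 SRF peaks, could rise only under wider settings. They stayed 0 within 50 kb and with any base of the peak or region counted. The count of genes with a region before heat shock also stayed 0 with CS or MM peaks alone. All other settings only remove peaks or regions, so a count of 0 could not move under them. Such fixed cases are among the 72. For peaks near the 4 genes, the 3 wild type peaks at 12 min became 0 with a score of 100 or more (p of 1e-10 or less) and 1 with an FDR of 5% or less. The 3 at 60 min became 6 within 50 kb. The 3 knockout peaks became 1 within 5 kb, 5 within 50 kb, and 0 with a score of 100 or more or with 10 tags or more. For shared regions, the 1 gene at 12 min (Hsf2) became 0 with a score of 100 or more and 0 with an FDR of 5% or less, since neither peak passed the first limit and the MM peak did not pass the second. The 1 gene at 60 min became 2 within 50 kb (Hsf1 added) and 2 with MM peaks alone (Hsf1 added). The share of all protein-coding genes with a region nearby (0.735%, 6.99% and 14.7%) became 0.416%, 4.41% and 9.48% within 5 kb, 1.3%, 12% and 23.8% within 50 kb, and 0.217%, 3.49% and 8.78% with a score of 100 or more. With an FDR of 5% or less it became 0%, 4.86% and 12.9%, and with MM peaks alone it became 2.75% before heat shock. Of the regulator list, for which other settings were chosen after seeing the data, the 5 genes in unheated cells became 0 and the 13 at 12 min became 7 with an FDR of 5% or less. With a score of 100 or more the 5, 13 and 13 listed genes became 4, 13 and 12. Without regions that overlap a knockout peak, the 13 listed genes at each later time became 9 at 12 min and 10 at 60 min. Ranks by fold or score instead of tags moved by over 1.5 times in 12 of 18 cases.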

Other observations

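Hsf2bp, which encodes a protein that binds HSF2 and is known from meiosis, was looked at after its values were seen. The gene spans 90127 bp of chromosome 17 (31944769 to 32034895). It had 6 knockout peaks inside it or within 20 kb, 4 from CS and 2 from MM, each with 4 to 7 tags, and no wild type CS, MM or SRF peak. Of all protein-coding genes 6.11% had at least as many knockout peaks by the same rule, and of the 2756 genes at least as long as Hsf2bp 20.3% did, so the count is no result about Hsf2bp. No position was called by both antibodies or at 2 times.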
